A study of Mus musculus with 7 samples.

Results

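Expression was followed for 8 genes of T cell restraint in the stromal vascular fraction of mouse inguinal subcutaneous fat, the non-adipocyte cells that collagenase frees from the tissue. They are checkpoint and interleukin-10 genes and were found by symbol: Pdcd1, Ctla4, Lag3, Tigit, Havcr2, Tox, Il10 and Il10ra, 8 of the 27998 genes in the deposited matrices. The set was chosen by its levels across cell classes and ages, with results of these libraries in view, so those levels and age differences are given as a description. The p-values printed for the 8 genes, also those with a library left out, are therefore not those of an independent test. The study compared female C57BL/6N mice at 2 ages by droplet sequencing of single-cell RNA (10x Genomics, 3' v3 chemistry): 4 young libraries (11 to 12 weeks old) and 3 old libraries (18 months old), with no treatment named at either age. The libraries are called young 1 to 4 and old 1 to 3 after the replicate numbers in the labels. As many mice as libraries are named for each age, but no label ties a library to 1 mouse, so p-values measure the spread between libraries, which may be partly technical.

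Checkpoint receptors are surface proteins that T cells raise after antigen stimulation and that damp further signalling when they meet their ligands. PD-1 (Pdcd1), CTLA-4 (Ctla4), LAG-3 (Lag3), TIGIT (Tigit) and TIM-3 (Havcr2) are the best studied of them, and the nuclear protein TOX (Tox) is known for maintaining the state of T cells under lasting stimulation. Interleukin-10 (Il10) is an anti-inflammatory cytokine made by macrophages, regulatory T cells and some B lineage cells, and its receptor chain (Il10ra) is found on many leukocytes.

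The promoters of the checkpoint receptors are shown because their transcription is known to respond to antigen receptor signalling through NFAT, whose binding sites share the core GGAAA. The table of RefSeq promoters (build GRCm38.p6) matched 4 of the 8 genes, namely Pdcd1, Ctla4, Tigit and Havcr2. The 250 bases before the RefSeq start are printed 5′ to 3′ on the gene's strand, with matches of GGAAA on either strand in capitals (all of them read TTTCC here):
Pdcd1, chr1:94052554-94052803, minus strand: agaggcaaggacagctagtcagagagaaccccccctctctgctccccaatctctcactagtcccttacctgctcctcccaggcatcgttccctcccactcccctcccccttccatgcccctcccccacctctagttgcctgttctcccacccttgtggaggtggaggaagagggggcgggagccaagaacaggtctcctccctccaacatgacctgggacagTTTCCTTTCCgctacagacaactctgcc
Ctla4, chr1:60908775-60909024, plus strand: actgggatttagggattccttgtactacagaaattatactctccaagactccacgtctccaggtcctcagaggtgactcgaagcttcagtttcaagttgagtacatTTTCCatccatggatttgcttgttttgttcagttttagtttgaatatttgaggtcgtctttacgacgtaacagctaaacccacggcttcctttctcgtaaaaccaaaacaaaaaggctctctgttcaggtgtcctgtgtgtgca
Tigit, chr16:43664185-43664434, minus strand: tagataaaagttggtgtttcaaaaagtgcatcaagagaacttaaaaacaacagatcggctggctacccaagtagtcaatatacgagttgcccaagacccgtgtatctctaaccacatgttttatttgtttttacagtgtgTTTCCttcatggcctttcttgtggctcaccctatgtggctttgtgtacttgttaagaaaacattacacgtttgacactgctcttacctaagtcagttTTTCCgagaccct
Havcr2, chr11:46454681-46454930, plus strand: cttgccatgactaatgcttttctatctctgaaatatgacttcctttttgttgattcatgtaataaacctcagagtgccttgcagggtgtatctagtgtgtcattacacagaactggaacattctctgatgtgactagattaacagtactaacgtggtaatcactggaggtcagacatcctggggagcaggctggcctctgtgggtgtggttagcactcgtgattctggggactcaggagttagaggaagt

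Counting back from the start (-1 is the last base before it), the Pdcd1 window held 2 adjoining matches of GGAAA at -28 to -24 and -23 to -19. Ctla4 held 1 match at -144 to -140, and Tigit held 2, at -110 to -106 and -13 to -9. The Havcr2 window held 0 matches. Windows of this length with at least 1 match made up 55.6% of 32851 promoters in the same table, so a match is common. Of 3 other motifs searched on both strands, the AP-1 motif TGANTCA (6.75% of promoters) matched Havcr2 at -200 to -194. The RUNX core TGTGGT (14.0% of promoters) matched Havcr2 at -46 to -41 and Tigit at -140 to -135. The ETS-type motif GAGGAA (23.3% of promoters) matched Havcr2 at -8 to -3 and Pdcd1 at -87 to -82. None of these matches overlapped another, and a match is a run of letters, not a site shown to be bound. The Ctla4 window lies inside the longer Ctla4 gene of GENCODE M21 (GRCm38, chr1:60887000-60915832, plus strand), which starts further upstream than the RefSeq transcript.

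All 8 genes are protein-coding in GENCODE M21. Pdcd1 lies at chr1:94038305-94052553 (minus strand), Lag3 at chr6:124904361-124911705 (minus), Tigit at chr16:43648867-43664146 (minus) and Havcr2 at chr11:46454935-46481255 (plus). Tox lies at chr4:6686353-6991557 (minus), Il10 at chr1:131019845-131024974 (plus) and Il10ra at chr9:45253837-45269149 (minus).

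The matrices held 45514 barcodes, of which 37372 were kept as cells, 2797 to 6904 per library. Library totals were 52336665 to 99516882 unique molecular identifiers (UMIs, counted molecules), and the median kept cell held 9240 to 13785 UMIs in the young libraries and 5986 to 7955 in the old ones. Cell classes were rebuilt by clustering without the 8 genes and named from marker genes, so each name stands for X-like cells. T cells numbered 59, 246, 309 and 355 in young 1 to 4 and 1039, 1091 and 1155 in old 1 to 3. Their median UMIs per cell were 5038.5 to 8922 in the young and 4759 to 5947 in the old libraries, and the T cell marker Cd3e was present at 280 to 715 CPM (a gene's UMIs per 1000000 UMIs of the summed class) in every library. Old 3 stood apart, because its Cd3e level of 715 CPM was above those of the other 6 libraries (280 to 386) and its T cells fell mostly into clusters of their own. Cells of 1 T cell class therefore often came from different clusters in different libraries. Naive T cells came mainly from a pair of clusters in young 3 and 4, from another in young 1, young 2, old 1 and old 2, and from another in old 3. The non-naive CD8 cells of old 1 and old 2 shared clusters that held few cells of old 3. One cluster mixed CD4 and CD8 cells and was divided by whether a cell held a Cd8a or Cd8b1 UMI or a Cd4 UMI. It supplied 41 of the 68 young CD8 cells and 5 of the 1387 old ones, and 37 of the 78 young and 71 of the 813 old conventional CD4 cells. The other conventional CD4 clusters were named by their Cd4 and Cd40lg levels, and neither gene was among the leading genes of any of them: a pair was led by Sostdc1 and held Tnfrsf4, from the list of regulatory T cell markers, and another was led by Il17a, from the list of innate-like markers. The values of this class are therefore those of a mixture of clusters.

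The T cell subsets set how each gene's sum over T cells is made up, and they were called without the 8 genes. Naive T cells (Lef1 and other markers of cells that have not met antigen) made up 25.4%, 35%, 87.7% and 76.3% of T cells in young 1 to 4 and 16.4%, 3.39% and 31.9% in old 1 to 3. Young 3 and young 4 were mostly naive, while old 2 held hardly any naive cells, and the ages overlapped. Non-naive CD8 T cells made up 15.3%, 15.9%, 2.27% and 3.66% in the young and 56.6%, 39.3% and 32.0% in the old libraries. The ages did not overlap, and an exact permutation test, run on mean logit shares, gave p = 0.0286, the smallest that 35 splits allow, or 0.143 after Benjamini-Hochberg adjustment over 5 subsets (2-sided). This depended on how the subset was called. The exact permutation p of the CD8 share was also 0.0286 with doublets kept and with the 8 genes left in the clustering. It was 0.0857 with T cells clustered at resolution 2, 0.0857 with stricter cell filters and 0.114 by gates on single cells. Regulatory T cells were 3.56% ± 2.07 (SD, n = 4) of T cells in the young libraries and 10.1% ± 2.03 (SD, n = 3) in the old (exact permutation p = 0.0571, adjusted p = 0.143). Conventional non-naive CD4 cells averaged 9.84% and 24.6%, and T cells marked by the scavenger receptor gene Cd163l1 averaged 15.7% and 4.52% (adjusted exact permutation p = 0.2 for both and for naive cells). With these few libraries no subset passed after adjustment.

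**Figure D1:**
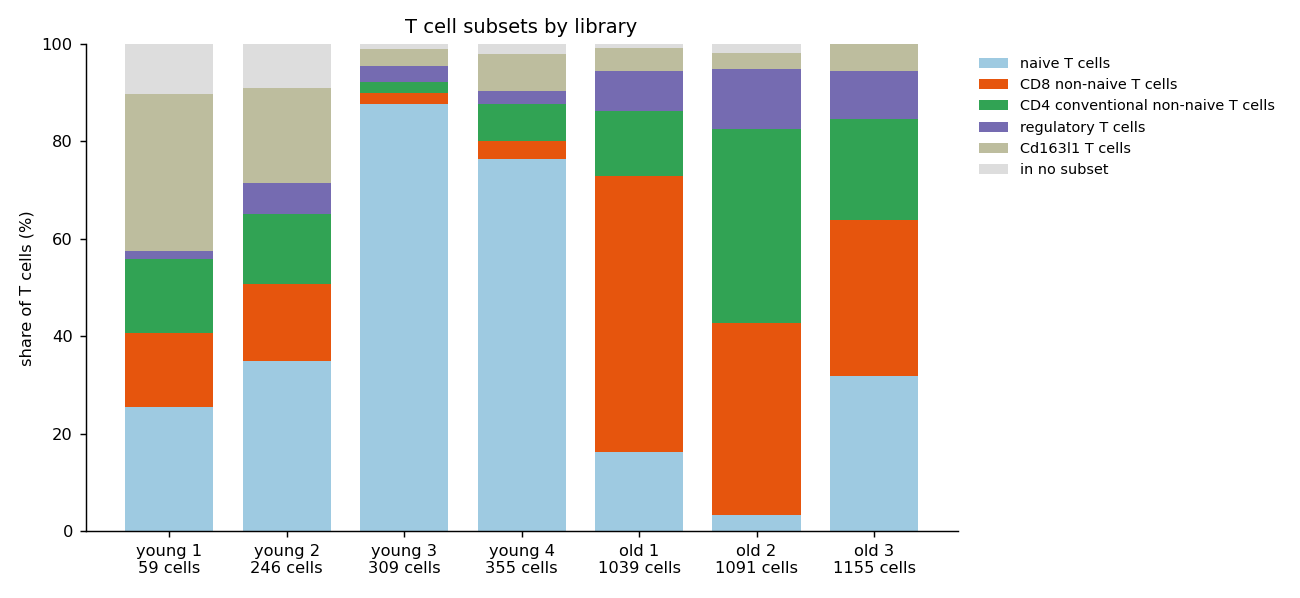
Share of T cells (%) in each subset, stacked by library, with the number of T cells below each bar. The non-naive CD8 share is 32.0% to 56.6% in the old libraries and 2.27% to 15.9% in the young ones, and naive cells fill most of young 3 and young 4.

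In summed T cells, 5 of the 8 genes were higher in every old library than in every young one: Lag3, Tigit, Tox, Il10 and Il10ra. The other genes, Pdcd1, Ctla4 and Havcr2, overlapped between the ages. Of all 9754 genes with values in this comparison, 5.11% were higher in every old library. In a sum over cells, more cells of an expressing subset and more RNA per cell cannot be told apart, so each gene is also given within subsets. The edgeR quasi-likelihood test with Benjamini-Hochberg adjustment called 26 of 9758 genes (0.266%), 25 of them higher in old T cells (0.256%), and 3 of the 7 members that passed the filter on low counts were among these. The median log2 difference was 2.27 over the 7 members and 0.01 over all genes tested. These counts and medians, and the p-values of single members below, rest on the contrast from which the genes were picked. Nothing about the set is read from them.

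**Figure D2:**
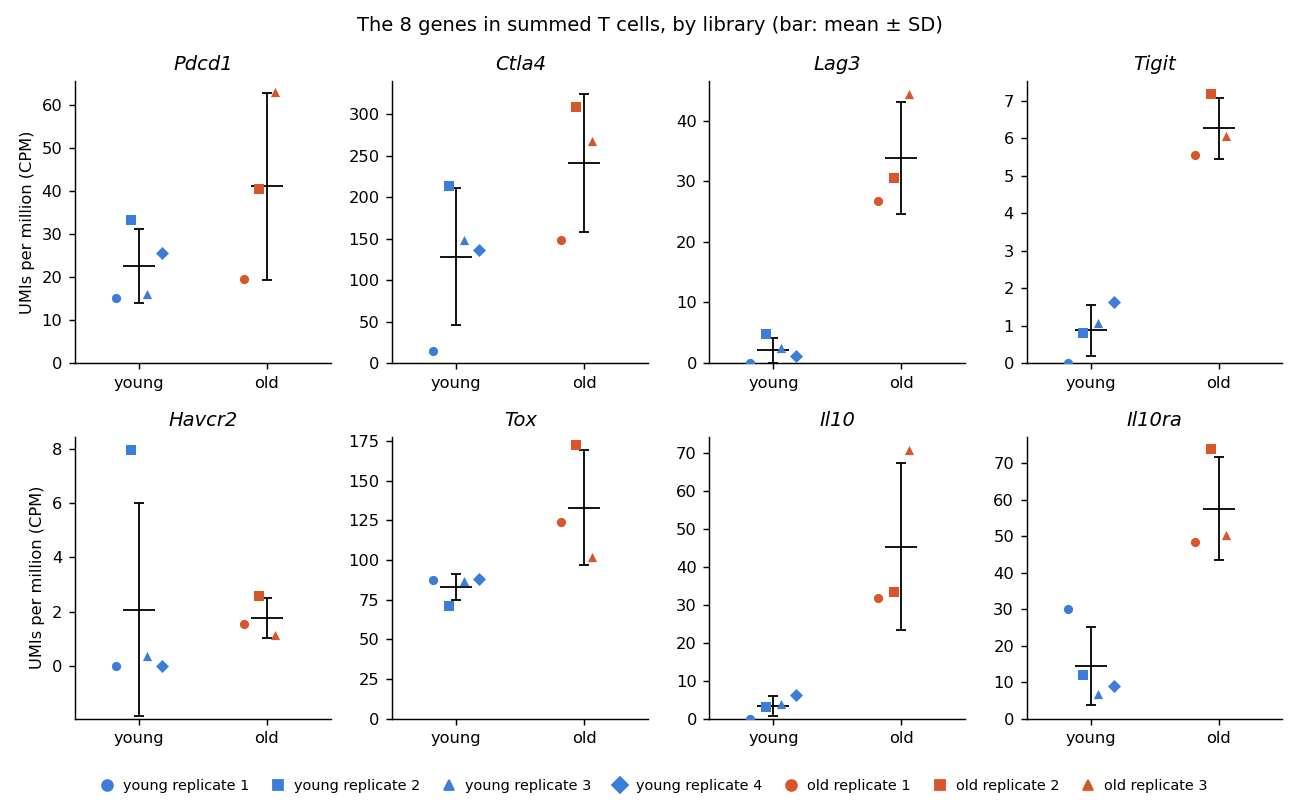
CPM of each gene in summed T cells, 1 point per library, with the mean and SD (black) for 4 young and 3 old libraries; the Havcr2 error bar reaches below 0. Lag3, Tigit, Tox, Il10 and Il10ra separate the ages, and the single high young point for Havcr2 is young 2.

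Pdcd1 encodes PD-1, the receptor for PD-L1 and PD-L2. It was measured in summed T cells at 15.1, 33.4, 16.1 and 25.7 CPM in young 1 to 4 and at 19.6, 40.6 and 63.1 CPM in old 1 to 3. Old 3 was the highest library and old 1 lay among the young ones (log2 difference 0.76, SE 0.42, edgeR adjusted p = 0.733). With naive cells left out, the values were 21, 52.1, 86.1 and 107 CPM in the young and 22.6, 41.8 and 91.1 CPM in the old libraries. The difference then pointed down (log2 -0.29, SE 0.50, edgeR adjusted p = 0.970), and both age ranges nearly coincided.

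Across classes, Pdcd1 was highest in Cd163l1 T cells, at 118 CPM ± 77.4 (SD, n = 5 libraries with at least 20 cells). Regulatory T cells (67.9 ± 37.5, n = 3), CD4 (46.0 ± 26.4, n = 5) and CD8 cells (42.0 ± 31.6, n = 4) and Il1rl1-marked (ST2) innate lymphoid cells (41.4 ± 33.6, n = 4) followed, and these neighbours overlapped. Naive T cells were at 2.32 ± 3.01 CPM (n = 6), and NK cells, B cells and plasma cells at 0.258 to 2.25 CPM on average. In Cd163l1 T cells Pdcd1 was measured at 44.1, 145, 165 and 236 CPM in the young and 58.1, 43.4 and 106 CPM in the old libraries. Summed by age, old cells held 0.461 times the young level (95% counting interval 0.329 to 0.640), although young 1 was as low as the old libraries. This small subset supplied 46.9% of all young Pdcd1 UMIs and 6.78% of the old ones. In the old libraries 37.2% of Pdcd1 UMIs came from CD8 cells, where the 3 libraries differed widely: 14.2, 46.7 and 84.7 CPM, with old 3 highest.

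Ctla4 encodes the receptor that competes with CD28 for CD80 and CD86 and is held at high levels by regulatory T cells. Summed over T cells, it stood at 15.1, 213, 148 and 137 CPM in the young and 148, 309 and 267 CPM in the old libraries. Young 1, with 5 Ctla4 UMIs in 59 T cells, was the low library, and the ages overlapped (log2 difference 0.74, SE 0.53, edgeR adjusted p = 0.847). Without naive cells the difference was near 0 (log2 -0.03, SE 0.58, edgeR adjusted p = 1.00).

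Regulatory T cells were first among the classes for Ctla4, 1219 CPM ± 339 (SD, n = 3 old libraries), and their lowest library (834 CPM) lay above the highest library of any other class with at least 20 cells (525 CPM, plasma cells of old 2). Young regulatory T cells numbered 1, 16, 10 and 10, too few for the planned comparison. Their Ctla4 values in young 2 to 4 were 1524, 2112 and 1293 CPM against 834, 1473 and 1349 CPM in old 1 to 3, and the single regulatory T cell of young 1 held no Ctla4 UMI. A Ctla4 UMI was seen in 82.6%, 83.6% and 95.5% of old regulatory T cells. Stromal progenitors, which should lack the gene, showed one in 0.765% to 3.37% of cells in the same libraries, at a median depth of 8902 to 12656 UMIs against 3833.5 to 4878 in regulatory T cells.

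Conventional CD4 cells were next, at 331 CPM ± 67.5 (n = 5). Their values were 68.7, 393, 476 and 272 CPM in the young and 388, 248 and 355 CPM in the old libraries, and the 2 young libraries with at least 20 cells (young 2 and young 4) overlapped the old ones (log2 0.01, SE 0.35, edgeR adjusted p = 1.00). Naive T cells carried 62.0, 97.1 and 96.5 CPM in young 2 to 4 and 82.2, 133 and 82.1 CPM in old 1 to 3 (log2 0.00, SE 0.27, edgeR adjusted p = 0.999). CD8 cells carried 0, 22.4, 94.2 and 122 CPM in the young and 53.1, 116 and 96.0 CPM in the old libraries. In Cd163l1 T cells Ctla4 was at 0, 351, 64.0 and 91.2 CPM in the young and 0, 43.4 and 19.97 CPM in the old libraries. Summed by age, old Cd163l1 cells held 0.116 times the young level (95% counting interval 0.0641 to 0.199), and young 2 alone gave 75 of the 99 young UMIs.

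Lag3 encodes a receptor related to CD4 that binds MHC class II. It was measured in summed T cells at 0, 4.77, 2.51 and 1.22 CPM in the young and at 26.7, 30.5 and 44.3 CPM in the old libraries, from 0, 6, 7 and 3 UMIs against 173, 166 and 271. Every old library lay far above every young one (log2 difference 3.71, SE 0.46, edgeR adjusted p = 0.00878). Without young 4 the edgeR adjusted p was 0.0674, and with naive cells left out the log2 difference was 2.65 (SE 0.54, adjusted p = 0.0722), the ages still apart at 0 to 16.6 against 30.7 to 61.9 CPM (2.79% of 7305 genes were higher in every old library there). Without old 3 the log2 difference was 3.32 (adjusted p = 0.0108). The share of T cells with a Lag3 UMI was 1.14% ± 1.02 (SD, n = 4) in the young libraries and 10.2% ± 1.24 (SD, n = 3) in the old. After every cell was thinned to 2000 UMIs, the means were 0.463% and 5.52%.

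Lag3 was not confined to lymphocytes in these data. Stromal progenitors held 4.93, 6.10, 3.62 and 5.94 CPM in the young and 11.5, 7.13 and 20.9 CPM in the old libraries and supplied 47.3% of all young Lag3 UMIs. The T cell level was below the progenitor level in 4 of 4 young libraries and above it in 3 of 3 old libraries. Thinned to 2000 UMIs, 1.08% of young and 3.1% of old progenitors showed a Lag3 UMI. The part that such RNA plays in the low young T cell counts was not tested.

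Within subsets, Lag3 was measured in CD8 cells at 0, 13.5, 0 and 11.1 CPM in the young (4 UMIs in 68 cells) and 20.8, 33.4 and 61.2 CPM in the old libraries. Summed by age, old CD8 cells held 3.64 times the young level, with a counting interval of 1.41 to 13.5. The mixed cluster gave 3 of the 4 young UMIs (13.6 CPM in 41 cells), and without it 27 young cells held 4.91 CPM, from 1 UMI, and 1382 old cells 34.4 CPM (ratio 7.003, 95% counting interval 1.25 to 278). Conventional CD4 cells held 0, 5.54, 73.3 and 0 CPM in the young and 91.5, 28.7 and 62.9 CPM in the old libraries. The value of 73.3 in young 3 came from 4 UMIs in 7 cells, and the test of young 2 and young 4 against the old libraries gave a log2 difference of 4.23 (SE 1.06, edgeR adjusted p = 0.521), in a comparison where 12.8% of 6846 genes were higher in every old library. Regulatory T cells held 0, 0, 16.0 and 0 CPM in the young, from 1 UMI, and 44.9, 48.7 and 96.1 CPM in the old libraries (log2 3.52, SE 1.04, edgeR adjusted p = 0.304 over libraries with at least 10 cells, where 5.82% of genes were higher in every old library). In each of these subsets old 3 or old 1 was the highest library and all old libraries carried the gene.

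Lag3 also differed between clusters of 1 class. The CD8 cluster that held most old 1 and old 2 cells carried 42.3 CPM and the corresponding cluster of old 3 carried 72.3 CPM, while a CD8 cluster made up mostly of old 1 cells (154 of 161) held 0 Lag3 UMIs. Among the clusters counted as conventional CD4 cells, a Sostdc1-led one, mostly of old 1 and old 2 cells, held 86.1 CPM. The Il17a-led one, mostly of old 2 cells (188 of 224), held 0.708 CPM, from 1 UMI, and its other leading genes included Il17re, Tmem176a and Tmem176b. NK cells held 0, 0.936, 15.1 and 12.0 CPM in the young and 23.2, 8.48 and 11.3 CPM in the old libraries, which overlapped.

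Tigit encodes a receptor for the nectin-family ligand CD155, shared by T and NK cells. Its counts were low: 0, 1, 3 and 4 UMIs in young T cells and 36, 39 and 37 in old ones, or 0, 0.795, 1.07 and 1.63 CPM against 5.56, 7.16 and 6.05 CPM. The ages did not overlap, and the old libraries were close to each other (log2 difference 2.27, SE 0.51, edgeR adjusted p = 0.125). With naive cells left out, young 3 reached 6.62 CPM (2 UMIs) and the ages overlapped. CD8 cells held no Tigit UMI in the 68 young cells and 6.85, 8.69 and 10.4 CPM in the old libraries. Against a floor of 3 UMIs over the young group, old CD8 cells were at least 1.16-fold higher. NK cells, which are also known to carry TIGIT, held 0, 3.74, 6.48 and 6.86 CPM in the young and 0, 3.39 and 2.05 CPM in the old libraries, which overlapped. In the young libraries 11 of the 22 Tigit UMIs came from NK cells, and in the old libraries 69 of 139 came from CD8 cells. No Tigit UMI was found in Cd163l1 T cells or ST2 innate lymphoid cells.

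Havcr2 encodes TIM-3, which terminally stimulated T cells and myeloid cells share. In T cells it was at 0, 7.95, 0.358 and 0 CPM in the young and 1.54, 2.57 and 1.14 CPM in the old libraries, below the filter of the test. The high value of young 2 came from 10 UMIs, 8 of them in Cd163l1 T cells. Instead, Havcr2 belonged to myeloid classes: dendritic cells held 91.2 CPM ± 23.0 (SD, n = 7), monocytes 52.7 ± 25.5 (n = 6) and macrophages 11.4 ± 9.81 (n = 7). Dendritic cells held 96.1, 76.0, 118 and 109 CPM in the young and 99.8, 90.8 and 48.6 CPM in the old libraries, with old 3 lowest (log2 -0.35, SE 0.27, edgeR adjusted p = 1.00). Monocytes held 77.0, 43.4, 60.5 and 90.9 CPM in the young and 43.6, 25.2 and 36.0 CPM in the old libraries. Old 1 lay just above young 2, and the difference over the 3 young libraries with at least 20 monocytes was a log2 of -0.92 (SE 0.37, edgeR adjusted p = 0.837). Regulatory T cells held 4 Havcr2 UMIs in old 2, 2 in old 3 and 0 in the other libraries.

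**Figure D3:**
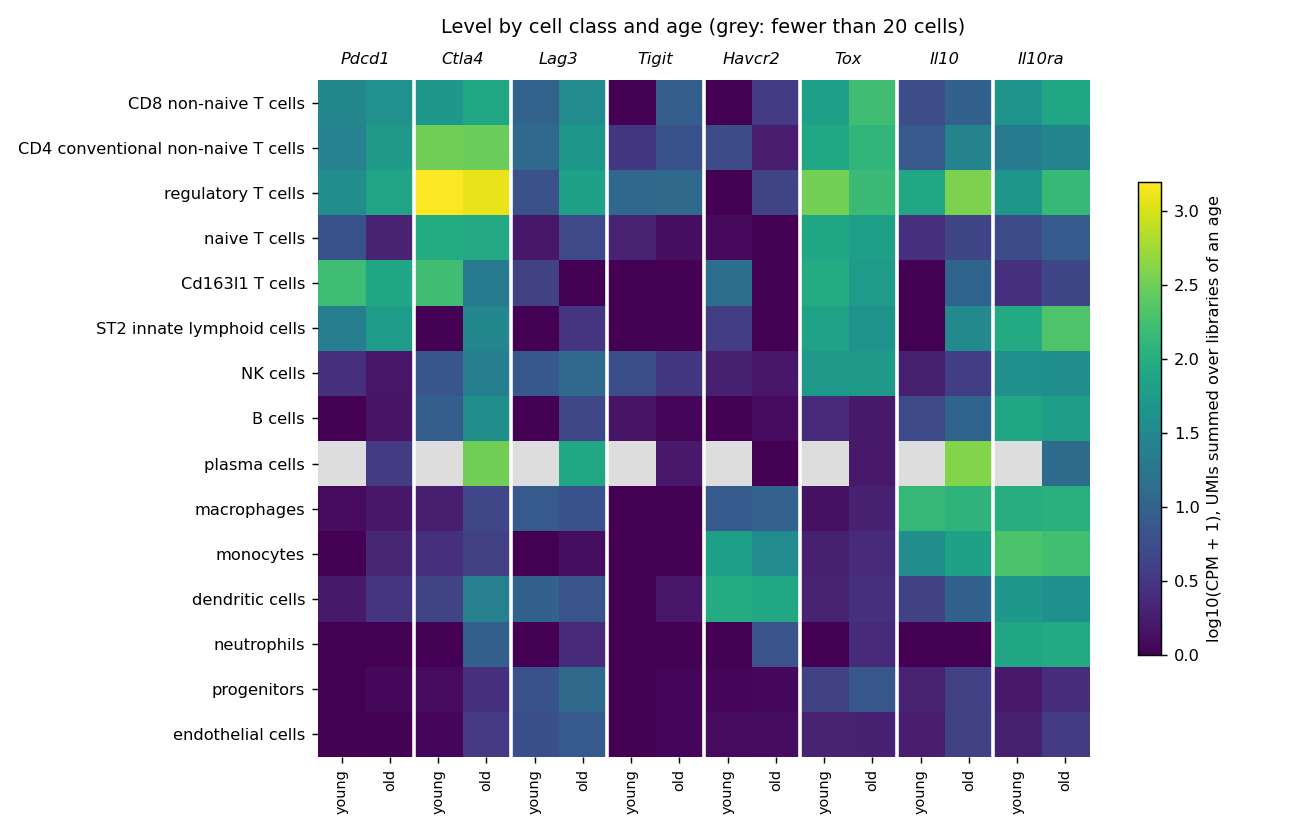
Level of each gene by cell class (vertical) and age (horizontal), as log10(CPM + 1) of UMIs summed over the libraries of an age; grey marks fewer than 20 cells. Ctla4 is brightest in regulatory T cells, Havcr2 in monocytes and dendritic cells, and Il10 in old regulatory T cells, old plasma cells and macrophages.

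Tox encodes the nuclear factor named above. In summed T cells it was measured at 87.4, 70.7, 86.6 and 88.0 CPM in the young and 124, 173 and 102 CPM in the old libraries. The gap between the ages was small, with young 4 and old 3 closest (log2 difference 0.55, SE 0.22, edgeR adjusted p = 0.557), and without naive cells the ages overlapped (74.4 to 159 against 122 to 177 CPM). CD8 cells held 17.0, 62.8, 151 and 44.4 CPM in the young and 127, 276 and 112 CPM in the old libraries. The young 3 value, from 8 UMIs in 7 cells, lay within the old range, and the age sums differed by 2.55-fold (95% counting interval 1.75 to 3.89). Without the cells of the mixed cluster, which made up most young CD8 cells, the sums were 83.5 and 163 CPM, a ratio of 1.95 (1.21 to 3.36). In the cluster of most old 1 and old 2 CD8 cells alone the ratio was 1.51 (0.858 to 2.92), from 12 UMIs in 10 young cells. In regulatory T cells the order was the other way round, with 121, 496 and 394 CPM in young 2 to 4 against 124, 144 and 172 CPM in the old libraries. The old sum was 0.448 times the young sum (95% counting interval 0.338 to 0.600; log2 -1.16, SE 0.40, edgeR adjusted p = 0.499 in the fit of libraries with at least 10 cells), and young 2 (7 UMIs in 16 cells) lay below the old libraries. In the larger of the regulatory T cell clusters alone the ratio was 0.574 (0.420 to 0.795).

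Tox also divided the old CD8 cells. The large cluster of old 1 and old 2 carried 294 CPM and the matching cluster of old 3 carried 143 CPM, while the cluster made up mostly of old 1 cells carried 11.2 CPM. Within old CD8 cells, a Tox UMI was found in 71.8%, 76.6% and 46.5% of cells with a Pdcd1 UMI and in 35.7%, 51.2% and 32.7% of the others. The share was higher beside Pdcd1 in 3 of 3 libraries, and the median depths of both kinds of cell were close in old 1 and old 2 (6718 against 6831 UMIs and 4798 against 4827 UMIs) and 6070 against 5367 UMIs in old 3. Old CD4 cells showed the same order, with 60.9%, 82.9% and 63.4% of cells with a Pdcd1 UMI against 38.3%, 20.3% and 28.1% of the others. In old regulatory T cells the shares were 91.7%, 50% and 58.3% against 37.8%, 31.9% and 59.2%, so old 3 showed no gap. Regulatory T cells with a Pdcd1 UMI were deeper in each old library (medians of 5291 to 6781.5 against 3589.5 to 4468.5 UMIs). Lag3 and Ctla4 were also found together in old CD8 cells. There 21.6%, 25.4% and 31.1% of cells with a Ctla4 UMI had a Lag3 UMI, against 5.24%, 8.14% and 13.9% of cells without. NK cells held Tox at 51.9 CPM ± 11.8 (SD, n = 7) with overlapping ages, and B cells and plasma cells held almost none (1.38 and 0.625 CPM on average).

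**Figure D4:**
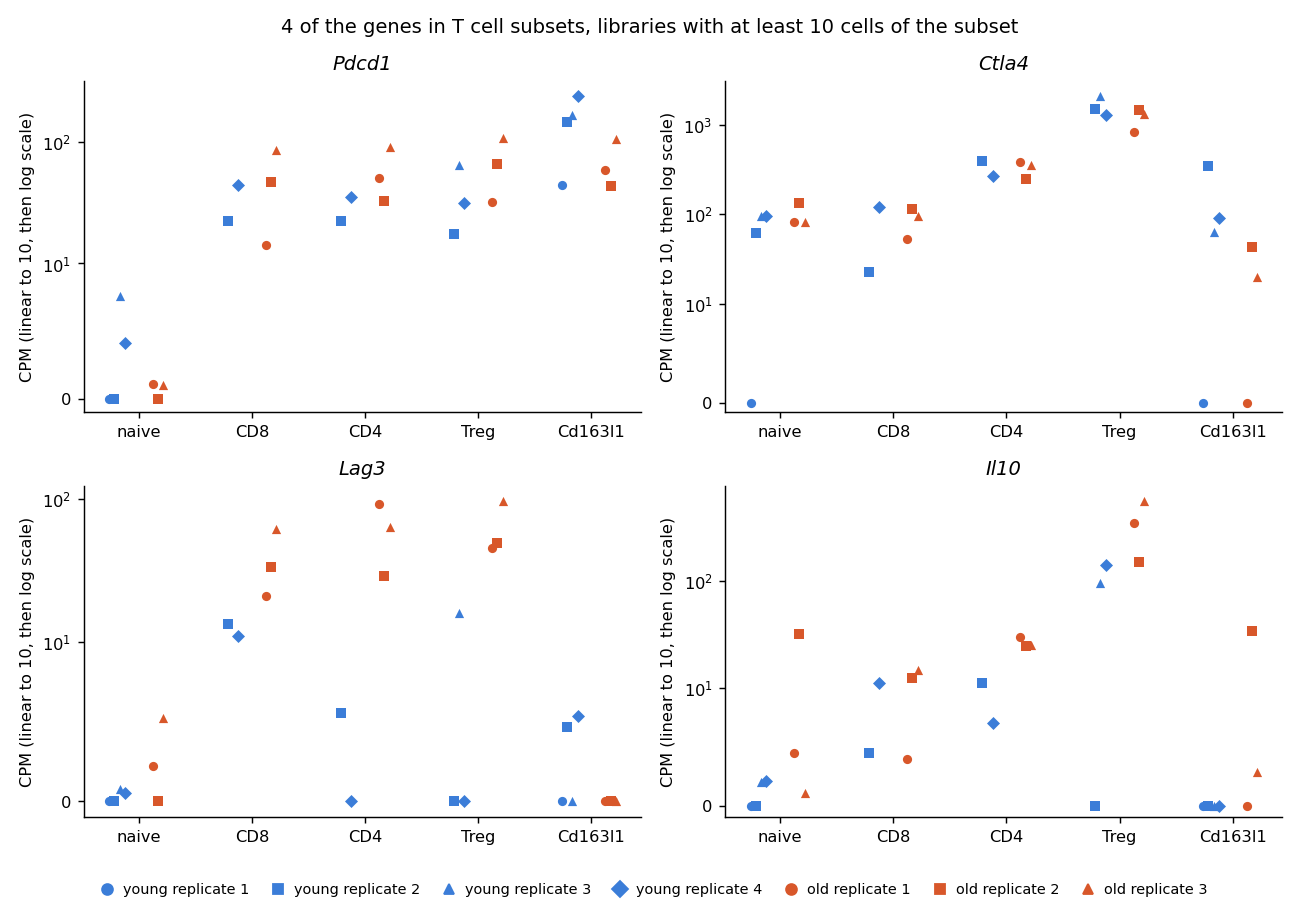
CPM of Pdcd1, Ctla4, Lag3 and Il10 in T cell subsets, 1 point per library with at least 10 cells of the subset; the axis is linear to 10 and logarithmic above. Lag3 in regulatory T cells runs from 44.9 to 96.1 CPM in the old libraries and is at most 16.0 in the young ones, while Pdcd1 in Cd163l1 T cells is highest in young 4 at 236.

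Il10 encodes the cytokine itself. Summed over T cells, it stood at 0, 3.18, 3.94 and 6.11 CPM in the young and at 31.7, 33.4 and 70.7 CPM in the old libraries. The ages were far apart (log2 difference 3.33, SE 0.49, edgeR adjusted p = 0.0218), but the edgeR adjusted p was 0.0533 without young 1, 0.0990 without young 3 and 0.0674 without young 4. Without old 3 the log2 difference was 2.66 (adjusted p = 0.0160). With naive cells left out the values were 0, 4.96, 19.9 and 21.3 CPM against 36.1, 33.5 and 102 CPM (log2 2.41, SE 0.63, edgeR adjusted p = 0.172). A few cells carried much of it, since the 5 cells with most Il10 held 42.4%, 29.1% and 43.3% of the UMIs of old 1 to 3.

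Most T cell Il10 came from regulatory T cells, 619 of 819 old UMIs. They held 0, 0, 96.0 and 142 CPM in the young (15 UMIs in 37 cells) and 351, 151 and 566 CPM in the old libraries. The sums by age were 79.6 and 369 CPM, a ratio of 4.64 (95% counting interval 2.79 to 8.34), and in a fit of the libraries with at least 10 cells, added after the cell numbers had been seen, the log2 difference was 2.20 (SE 0.59, edgeR adjusted p = 0.176). In that fit 8 of 3814 genes passed (0.21%) and 0 of the 6 members tested were among them. Regulatory T cells fell into a pair of clusters. In the smaller one (127 cells), led by Il1rl1 and Klrg1, Il10 stood at 673 CPM, Il10ra at 215 CPM and Lag3 at 11.4 CPM. In the larger one (242 cells) Il10 stood at 96.4 CPM, Il10ra at 69.5 CPM and Lag3 at 95.5 CPM, and Ctla4 was alike in both (1259 and 1300 CPM). The smaller cluster held 5 of the 37 young and 122 of the 332 old regulatory T cells, so the age sums above also differ in their mix of clusters. Within the larger one Il10 stood at 83.8 CPM in 32 young cells and 98.8 CPM in 210 old cells (ratio 1.18, 95% counting interval 0.667 to 2.24). In the smaller one it stood at 46.7 CPM in the young, from 1 UMI in 5 cells, and 691 CPM in the old cells. Cell by cell the pattern differed between libraries: Lag3 was found in 0%, 25.0% and 10.9% of old regulatory T cells with an Il10 UMI and in 19.0%, 8.82% and 24.2% of the others, so old 2 went against old 1 and old 3. Klrg1, a receptor of tissue and effector T cells, was found in 78.3%, 84.4% and 84.8% of old regulatory T cells with an Il10 UMI and in 31.7%, 51.0% and 28.8% of the others, which were shallower (medians of 3671 to 4580 against 5007.5 to 6304 UMIs). For Il1rl1, the ST2 gene, the shares were 82.6%, 31.25% and 69.6% with an Il10 UMI and 28.6%, 35.3% and 24.2% without, so old 2 again differed from old 1 and old 3.

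CD8 cells held Il10 at 0, 4.49, 0 and 11.1 CPM in the young and 3.91, 12.4 and 14.6 CPM in the old libraries, which overlapped. Conventional CD4 cells held 0, 11.1, 0 and 6.97 CPM in the young, from 3 UMIs, and 29.6, 24.8 and 25.0 CPM in the old libraries. Naive T cells held 31.7 CPM in old 2, from 5 UMIs in 37 cells, and at most 4.45 CPM in the other libraries. Among all classes, plasma cells (364 ± 282, SD, n = 3) and regulatory T cells (356 ± 207, n = 3) came first, both from old libraries only. They did not differ beyond their spread and were followed by macrophages (121 ± 38.2, n = 7, both ages). In the young libraries macrophages averaged 124 CPM, and regulatory T cells 79.3 CPM over the 3 libraries with at least 10 of them. Macrophages supplied 82.1% of all young and 53.0% of all old Il10 UMIs, and their level overlapped between the ages: 67.1, 145, 173 and 110 CPM in the young against 76.5, 134 and 139 CPM in the old libraries (log2 -0.10, SE 0.35, edgeR adjusted p = 1.00). Il10 in old progenitors ranged from 0.445 CPM in old 3 to 6.65 CPM in old 2, and old regulatory T cells stood above the progenitors of their own library in 3 of 3.

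Il10ra encodes the ligand-binding chain of the interleukin-10 receptor. In summed T cells it was at 30.1, 11.9, 6.80 and 8.96 CPM in the young and 48.5, 73.8 and 50.2 CPM in the old libraries. Young 1, the library with fewest T cells, was the highest young one, and all old libraries were higher (log2 difference 2.27, SE 0.33, edgeR adjusted p = 0.0200). The edgeR adjusted p was 0.0990 without young 3, 0.126 without young 4 and 0.0598 without old 2, and without old 3 the log2 difference was 2.29 (adjusted p = 0.0208). With naive cells left out the ages stayed apart, at 17.4 to 29.8 against 54.5 to 75.8 CPM (log2 1.55, SE 0.28, edgeR adjusted p = 0.0344), in a fit that called 22 of 7307 genes (0.301%) and 1 of the 6 members tested. Naive T cells held the least of the T cell subsets other than Cd163l1 cells (5.60 CPM ± 3.07, SD, n = 6).

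CD8 cells held Il10ra at 34.0, 35.9, 37.7 and 77.7 CPM in the young and 59.9, 108 and 78.6 CPM in the old libraries, where young 4 (7 UMIs) lay among the old ones. Conventional CD4 cells were level, at 11.1 to 36.6 CPM in the young and 26.1 to 28.7 CPM in the old libraries. Regulatory T cells held 0, 52.0, 80.0 and 15.8 CPM in the young and 74.9, 186 and 148 CPM in the old libraries, and young 3 lay just above old 1. ST2 innate lymphoid cells held 54.6, 90.6, 133 and 95.0 CPM in the young and 170, 210 and 243 CPM in the old libraries. The ages did not overlap there, from 9, 20, 4 and 14 young and 22, 33 and 23 old cells. How many of all genes did likewise in this class was not counted. The age sums differed by 2.28-fold, with a 95% counting interval (1.52 to 3.52) that leaves out the spread between libraries. No test was made because 1 young library had at least 20 of these cells. Mast cells, monocytes and ST2 innate lymphoid cells led the classes at 229 ± 122 (SD, n = 5), 192 ± 36.2 (n = 6) and 178 ± 65.7 CPM (n = 4), within each other's spread. Dendritic cells alone among the tested classes had lower Il10ra in every old library (55.8, 45.4, 56.4 and 49.97 CPM against 38.0, 39.2 and 40.5 CPM), where 1.53% of 6081 genes were lower in every old library (log2 -0.39, SE 0.23, edgeR adjusted p = 1.00). In NK cells (21.5 to 64.8 against 24.6 to 62.8 CPM), B cells (49.2 to 93.1 against 54.0 to 60.3 CPM), monocytes and macrophages the ages overlapped.

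The B lineage carried members too. In B cells Ctla4 was at 0, 9.33, 12.2 and 2.72 CPM in the young and 44.1, 81.0 and 26.7 CPM in the old libraries. All old libraries were higher than all young ones, as were 4.89% of 7602 genes, and the log2 difference was 2.63 (SE 0.51, edgeR adjusted p = 0.0178). edgeR called 72 of 7603 genes there (0.947%), 54 of them higher in old B cells (0.71%), and 1 of the 2 members tested was among them, from which nothing is read. The edgeR adjusted p of Ctla4 was 0.0679 without young 2, 0.0505 without young 3, 0.0720 without young 4 and 0.0506 without old 2. Most B cells of young 1 sat in a cluster of their own (70 of 74), and without young 1 the log2 difference was 2.37 (adjusted p = 0.0217). Old 3 stood apart as well, with 965 and 240 of its 1223 B cells in a pair of clusters that held few cells of other libraries, and without old 3 the log2 difference was 2.86 (edgeR adjusted p = 0.0047). Il10 was at 0, 2.33, 6.58 and 2.72 CPM in the young and 8.83, 17.8 and 7.87 CPM in the old libraries. Lag3 had 0 UMIs in 419 young B cells and 12, 2 and 18 in old ones, at least 2.79-fold higher against a floor of 3 UMIs over the young group.

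Most Ctla4 UMIs of old B cells came from clusters low in Fcer2a, the low-affinity IgE receptor of follicular B cells. These clusters are pooled here, and Ctla4 was not compared between them. They held 1.09% to 3.41% of young and 39.9%, 62.6% and 20.4% of old B cells. A Ctla4 UMI was found in 18 of their 89 cells in old 1, 35 of 132 in old 2 and 59 of 249 in old 3. Ctla4 stood there at 80.8, 104 and 90.3 CPM in the old libraries, against 3.11, 11.6 and 1.00 CPM in the Fcer2a-high clusters of the same libraries. The level within the Fcer2a-low cells was thus similar in the 3 old libraries, while the whole B cell level followed their share. The low clusters also carried Spn (CD43; 59.9, 80.1 and 52.3 CPM) and Zbtb32 (53.0, 90.5 and 67.3 CPM), which marked them apart from the high clusters (1.76 to 8.67 and 0 to 0.251 CPM). Il10 was at 11.2, 17.9 and 25.5 CPM in the Fcer2a-low and 6.23, 17.3 and 0.753 CPM in the Fcer2a-high cells of old 1 to 3, so old 2 showed no gap. Too few young cells were Fcer2a-low for a comparison of ages within them.

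Plasma cells, which secrete antibody, were found in the old libraries (34, 51 and 35 cells), and 0 were called among the 18446 young cells kept. With those cells pooled, this allows a share of up to about 0.0163%. That approximate bound covers counting error only and leaves out the spread between libraries. Ctla4 was at 102, 525 and 280 CPM, Lag3 at 57.3, 120 and 56.7 CPM and Il10 at 39.1, 527 and 527 CPM. Old 1 was low for Ctla4 and Il10, and Lag3 was spread less. A Ctla4 UMI was found in 41.2%, 76.5% and 65.7% of plasma cells, Lag3 in 35.3%, 52.9% and 37.1% and Il10 in 14.7%, 56.9% and 51.4%. The T cell marker Cd3e was at 1.88 to 8.10 CPM in plasma cells and at 280 to 715 CPM in the T cells of the same libraries. Cells with Il10 were richer in Ctla4, with 80.0%, 93.1% and 77.8% against 34.5%, 54.5% and 52.9% of the other plasma cells, and were somewhat deeper (medians of 10708 to 14801 against 9128 to 13185 UMIs). Il10ra was low (9.72 to 15.6 CPM), Tox, Tigit and Pdcd1 had at most 4 UMIs each over all 120 cells, and Havcr2 had 0.

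**Figure D5:**
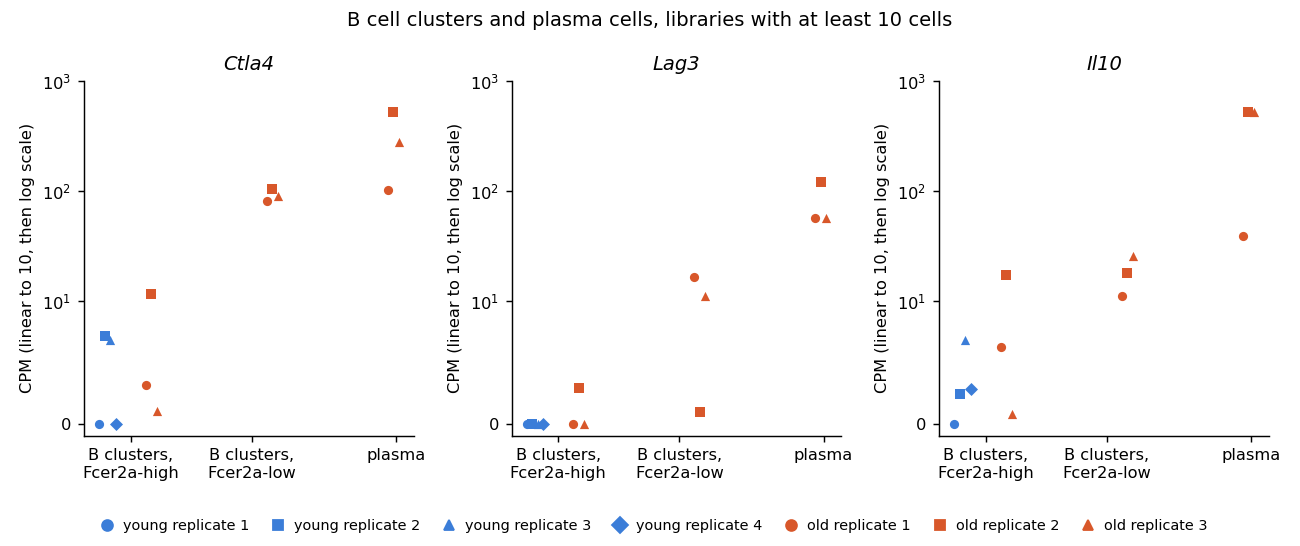
CPM of Ctla4, Lag3 and Il10 in B cell clusters with high or low Fcer2a and in plasma cells, 1 point per library with at least 10 cells; the axis is linear to 10 and logarithmic above. In the old libraries Ctla4 is at 80.8 to 104 CPM in Fcer2a-low clusters and at most 11.6 in Fcer2a-high ones.

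The wider pathway was read from fixed lists of genes that were not among the 8. These lists too were chosen with earlier results of these data known, so their p-values are not those of an independent test. In summed T cells, 2 of 28 tested genes of T cell activation and exhaustion rose and 0 fell: Eomes, a transcription factor of memory CD8 cells, from 15.6 CPM ± 5.24 (SD, n = 4) to 194 ± 77.0 (n = 3; log2 3.51, SE 0.34, edgeR adjusted p = 0.00176), and the granzyme gene Gzmk from 6.77 ± 7.76 to 110 ± 15.1 CPM (log2 4.81, SE 0.48, edgeR adjusted p = 0.00176). The list's median log2 difference was 0.53, beside 0.01 for all genes. Within CD8 cells, over libraries with at least 10 of them, 14 of its 29 tested genes had a log2 difference above 0 and 0 passed (median -0.16, beside 0.12 for all genes). Within conventional CD4 cells 12 of 26 did and 0 passed (median -0.05, beside 0.03). The rises of Eomes and Gzmk in summed T cells held with naive cells left out (log2 4.06 and 3.60). In that fit the chemokine receptor gene Cxcr6 fell from 453 ± 136 to 99.9 ± 34.7 CPM (log2 -2.07, SE 0.33, edgeR adjusted p = 0.0129). The other subsets still differed in share: non-naive CD8 cells averaged 9.26% of young and 42.6% of old T cells, and Cd163l1 cells 15.7% and 4.52%. Eomes and Gzmk were leading genes of large CD8 clusters, and Cxcr6 of a lymphocyte cluster led by Cd163l1. The part of this mix was not tested. In the fit of all T cells, none of 8 tested ligand genes passed. The ligand gene of lowest p was Cd274, which encodes PD-L1 (log2 0.97, SE 0.25, edgeR adjusted p = 0.206), followed by Lgals3 (log2 0.95, adjusted p = 0.613). None of 18 other receptor genes passed, with Klrg1 (log2 1.72, edgeR adjusted p = 0.366) and Tnfrsf4 (log2 1.20, adjusted p = 0.615) of lowest p. None of 13 genes of interleukin-10 signalling passed either, with the second receptor chain Il10rb (log2 0.91, SE 0.23, edgeR adjusted p = 0.193) and the feedback inhibitor Socs3 (log2 1.47, SE 0.43, adjusted p = 0.277) of lowest p.

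Beside these T cell results, genes of dissociation stress summed to 3426 to 9581 CPM in young and 7947 to 10207 CPM in old T cells. All 12 had a log2 difference above 0 (median 0.42, beside 0.01 for all genes), and 1 of them passed, Ier3 (log2 2.24, SE 0.37, edgeR adjusted p = 0.0332). Macrophage markers in T cells summed to 57.2 to 84.8 CPM in the young and 56.1 to 422 CPM in the old libraries, with UMIs of 6 or 7 of 7 genes. All 7 had a log2 difference above 0 and 0 passed (median 1.54). Progenitor markers summed to 455 to 889 against 156 to 614 CPM, and 1 of 5 had a log2 difference above 0 (median -0.67). The edgeR adjusted p of Ier3 ran from 0.0803 to 0.143 when young 1, young 3, young 4, old 1 or old 2 was left out. The part of these genes in the T cell values was not tested.

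In regulatory T cells, in the fit of libraries with at least 10 cells, Klrg1 rose from 103 ± 66.0 to 408 ± 64.5 CPM (log2 2.01, SE 0.44, edgeR adjusted p = 0.0459), as did the galectin-3 gene Lgals3 (log2 2.26, SE 0.49, adjusted p = 0.0459). Klrg1 was a leading gene of the smaller regulatory T cell cluster. That cluster held 2, 3 and 0 of the 16, 10 and 10 cells of young 2 to 4. It held 29, 41 and 52 of the 86, 134 and 112 cells of old 1 to 3. The part of this mix in the rises was not tested, and the fit was not repeated with a library left out. Of the 13 tested receptor genes, Klrg1 among them, 2 had a log2 difference above 0 and 11 below (median -0.41, beside 0.02 for all genes). All 10 tested genes of dissociation stress had a log2 difference above 0 there and 0 passed (median 0.54), and their part in these values was not tested. Among B cells the ligand gene Icosl fell from 78.5 ± 11.7 to 24.2 ± 5.68 CPM (log2 -1.64, SE 0.28, edgeR adjusted p = 0.00857) and Lgals3 rose (log2 2.27, SE 0.49, adjusted p = 0.0370), 1 of 9 tested ligands in each direction. The ectonucleotidase gene Nt5e (CD73) rose in B cells, from 0.706 ± 1.41 to 92.7 ± 39.2 CPM (log2 5.97, SE 0.57, edgeR adjusted p = 0.000104), and Tbx21, the T-bet gene, rose too (log2 4.61, SE 0.87, adjusted p = 0.0155). Leaving out 1 library took the edgeR adjusted p of Icosl to 0.0505 (young 3), that of Tbx21 to 0.0597 (young 2) and that of Lgals3 to between 0.147 and 0.194 (young 2, young 3, young 4 or old 2). The progenitor markers Col3a1 and Lum fell in B cells (log2 -2.38 and -1.77, edgeR adjusted p = 0.0172 and 0.0485), and their part in these values was not tested. In macrophages Tox2, a relative of Tox, fell from 9.27 ± 1.34 to 2.40 ± 0.460 CPM (log2 -1.97, SE 0.28, edgeR adjusted p = 0.0317), the 1 called gene of 23 tested in the activation list. Its edgeR adjusted p ran from 0.0642 to 0.155 when young 2, young 3, young 4 or any old library was left out.

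The other classes gave few or no calls. In conventional CD4 cells edgeR called 0 of 6848 genes (0.0%), with 344 at an unadjusted p under 0.05 and 7 called by DESeq2, and in NK cells 0 of 6231 (0.0%), with 217 unadjusted and 1 by DESeq2. In naive T cells 17 of 7611 genes passed (0.223%), in macrophages 27 of 11618 (0.232%), in monocytes 1 of 6039 (0.0166%) and in dendritic cells 0 of 6082 (0.0%, with 133 unadjusted and 9 by DESeq2). No member passed in these classes. In the non-naive CD8 cells of the 2 young libraries with at least 10 cells and the 3 old ones, 1 of 9329 genes passed (0.0107%) and 0 of the 7 members tested.

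By the measure fixed for likeness, the Pearson correlation of log2(CPM + 1) over the mean levels of 20 classes, which share libraries and depth, each gene had its own nearest neighbours. Cxcr6 was most like Pdcd1 (r = 0.965), Cd5 was second for Ctla4 (r = 0.887) after Gm42722 (r = 0.889), and Prkcq, Cd96 and Zap70 were most like Tox (r = 0.938, 0.908 and 0.901). Ifng, Gimap7 and Sh2d1a came first for Tigit (r = 0.848, 0.841 and 0.840), Tnip3 for Havcr2 (r = 0.870) and Rgs19, Naip5 and Grb2 for Il10ra (r = 0.893, 0.884 and 0.858). The nearest genes to Il10 (Aup1, r = 0.813) and Lag3 (Mkrn2, r = 0.705) were less like them. These are descriptions over 20 points.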

How the data were processed

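Single-cell RNA was measured in 7 libraries of subcutaneous adipose stromal vascular fraction, and the deposited matrices hold raw UMI counts per gene and barcode. Per the submitters' processing notes the authors used Cell Ranger 4.0.0 and the mm10 build. Total UMIs per library and cells per class are given with the results. The 8 genes and all gene lists were chosen with earlier results of these data known. Barcodes with at least 500 UMIs, 300 genes and at most 15% mitochondrial UMIs were kept, and called doublets (2.51% to 7.34% of barcodes per library) were removed. Clustering (scanpy 1.11.5, leidenalg 0.10.2, 2000 variable genes, 30 principal components, 15 neighbours, resolution 1) left out the 8 genes. It was run on all cells (40 clusters), on lymphocytes (28) and then on T cells alone (19). The last step, and the marker levels that named subsets, were set after the clusters' markers had been seen; 67 T cells fell in no subset. B cell clusters were split at 50 CPM of Fcer2a, also after seeing them.

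Counts were summed per library and class, in libraries with at least 20 cells, and tested with edgeR 4.0.16 (R 4.3.3; TMM, filterByExpr, quasi-likelihood, Benjamini-Hochberg over all genes of the class, threshold 0.05). Alternatives were DESeq2 1.42.0, other scaling, no filter, stricter cell filters, doublets kept, thinned counts, other subset calls, a replicate term and leaving out each library. A fit without naive T cells and fits with at least 10 cells per library were added after seeing the data. Intervals are exact 95% intervals and cover counting error only. For shares of cells with a UMI, cells were thinned to 2000 UMIs, with 1000 as an alternative. CPM values are not scaled further. On simulated data the T cell test recovered 28% of genes changed by 1 and 99% of those changed by 2 on the log2 scale, with 5 false calls. The test of conventional CD4 cells recovered 8% and 62%, with 0 false calls. Only genes averaging at least 20 UMIs per library were changed, and all genes were given the same dispersion. The recovery of genes with fewer UMIs was not simulated. Genes named from a list are up to 4 that passed, by lowest p, or the 2 of lowest p where none passed. All 8 genes are described in the classes where they were counted, and the 3 genes most like each were found by correlation across classes, of which the closest are named.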

Additional observations from a re-analysis of the deposited data

Results flagged for a closer look

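Of 47 groups of 4 young libraries tested for a single library far from the others, 5 stood out. The test expects about 1 in 20 for normally distributed values. Low counts with many zeros are not such values, so no excess over chance is read from the number. Havcr2 in T cells of young 2 was 7.95 CPM (10 UMIs), and the next young library was 0.358 CPM. Tox in T cells of young 2 was 70.7 CPM (89 UMIs), below the next lowest young library at 86.6 CPM. Pdcd1 in macrophages of young 1 was 3.16 CPM, from 5 UMIs, and the other young libraries were at 0. Il10ra in macrophages of young 1 was 130 CPM (206 UMIs), above the next at 98.3 CPM. Ctla4 in pericytes and smooth muscle of young 3 was 6.35 CPM, from 6 UMIs, and the other young libraries were at 0.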

How the results depend on the processing

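The number of genes called by edgeR moved with the libraries in every class. Leaving out 1 library gave 3 to 57 calls in T cells (26 with all libraries; 9, 5, 3, 8 and 10 without young 1, young 3, young 4, old 1 and old 2, and 57 without young 2 or old 3), 0 to 35 in CD4 cells, 0 to 324 in naive T cells, 0 to 1 in NK cells, 17 to 254 in B cells, 2 to 113 in macrophages, 1 to 7 in monocytes and 0 to 4 in dendritic cells. DESeq2 called 75 genes in T cells, 7 in CD4, 1 in NK, 118 in B cells, 151 in macrophages, 22 in monocytes and 9 in dendritic cells. With no filter on low counts the numbers were 292 in T cells, 36 in CD4, 112 in naive T, 15 in NK, 313 in B cells, 87 in macrophages, 109 in monocytes and 43 in dendritic cells. Stricter cell filters gave 8 in T cells, 36 in naive T, 45 in macrophages and 3 in dendritic cells. Thinned counts gave 17 in T cells, 1 in CD4, 7 in naive T and 2 in monocytes. Doublets kept gave 11 in naive T cells and 14 in macrophages. In naive T cells RLE size factors gave 11, the 8 genes left in the clustering 11 and gates on single cells 56. Monocytes with at least 10 cells per library gave 6.

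The replicate block gave 3 calls in NK cells, 109 in B cells, 11 in macrophages, 4 in monocytes and 1 in dendritic cells. The labels do not say that a number pairs libraries. Over 5329 genes, the deviations of same-numbered libraries correlated at -0.18, 0.15 and -0.02. Those of other pairs ran from -0.25 (young 4 and old 2) to 0.20 (young 3 and old 1). With so few libraries these values cannot decide whether a number stands for anything shared.

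Thinned to 1000 UMIs, the shares of T cells with a UMI were 2.16% young and 3.57% old for Pdcd1, 7.96% and 12.2% for Tox, and in old cells 16.4% for Ctla4, 3.11% for Lag3, 0.626% for Tigit, 0.170% for Havcr2, 2.62% for Il10 and 5.58% for Il10ra. Some log2 differences of listed genes that had not passed changed sign, and the cause was not tested. Without naive cells Tnfrsf4 in T cells was -0.0186, and by gates it was 0.54 in naive cells. With 1 library left out, Hspa1b in CD4 cells ran from -1.71 to 1.72 (positive without young 4), Lgals3 in dendritic cells from -0.51 to 0.0552 (positive without young 4) and Pvr in dendritic cells from -0.0321 to 0.44 (negative without young 1). In dendritic cells Lgals3 was 0.0712 with the replicate block and Id2 was 0.19 with stricter filters. Of the values of the 8 genes under all alternatives, 389 moved by less than the spread between libraries and 13 by more. Young CD8 and regulatory T cells were too few for the planned tests, CD4 cells had no replicate block fit because 1 number was shared, and a minimum of 10 cells added no CD4 library. Tigit and Havcr2 rest on few UMIs, which limits what can be seen of them at this depth.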
